A study of Danio rerio with 10 samples.

Results

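Dome-stage zebrafish embryos were compared with 1000-cell embryos, separately for nuclear and cytosolic RNA. All embryos were wild-type zebrafish (Danio rerio) of the AB strain, and the 2 stages were Dome and 1000 cell. Dome is named in the sample titles and is missing from the stages listed in the growth protocol. Embryos freed of the chorion with Pronase were lysed as pools with nuclei left whole, per the labels' protocols; after a spin the pellet was the nuclear and the supernatant the cytosolic fraction. The comparison uses 4 of the 10 libraries of a series that covers 5 stages, with 1 library per fraction and stage. Transcripts with 10 or more counts in 2 or more of these 4 libraries were kept, which left 8236 of 16383. The libraries held 13285467 nuclear and 11590909 cytosolic counts at dome, against 7662026 nuclear and 11715817 cytosolic counts at 1000-cell. The nuclear library at dome was therefore the deepest and the nuclear library at 1000-cell the shallowest, and 3 counts stood for 0.226 to 0.392 CPM, a count scaled to a common library size.

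Early zebrafish embryos divide on RNA and protein that the mother stored in the egg, while their own genome is nearly silent. Around the 1000-cell stage the midblastula transition begins: cell cycles lengthen, transcription of the embryo's genome starts on a broad scale, and part of the maternal RNA is broken down. At dome, a late blastula stage, zygotic transcription is under way and gastrulation has not begun. A newly made RNA is found in the nucleus before it is exported to the cytosol, while stored maternal RNA lies mostly in the cytoplasm. The tables at hand paired none of the transcript IDs with a gene (0 of 16383), so transcripts are described by ID and in groups, no gene role is given, and stage or fraction markers were not checked.

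At dome, more transcripts were higher than lower, in each fraction and in both together. In the nuclear fraction, 1907 of 8236 transcripts were at least 2-fold higher at dome (23.2%) and 895 at least 2-fold lower (10.9%). In the cytosolic fraction 1622 were higher (19.7%) and 928 lower (11.3%). In both fractions together 1104 were higher (13.4%) and 292 lower (3.55%). The higher transcripts thus outnumbered the lower ones 2.13 to 1 in the nuclear fraction, 1.75 to 1 in the cytosolic fraction and 3.78 to 1 where both agreed. With more higher than lower transcripts in each fraction, a larger ratio in both at once would arise from 2 unrelated lists as well. By itself it is therefore no sign of joint movement. All values are shares of a library's counts after scaling, so a transcript can be lower at dome because others took up more of the counts. Since whole embryos were pooled, fewer cells of a type and less RNA per cell cannot be told apart.

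**Figure D1:**
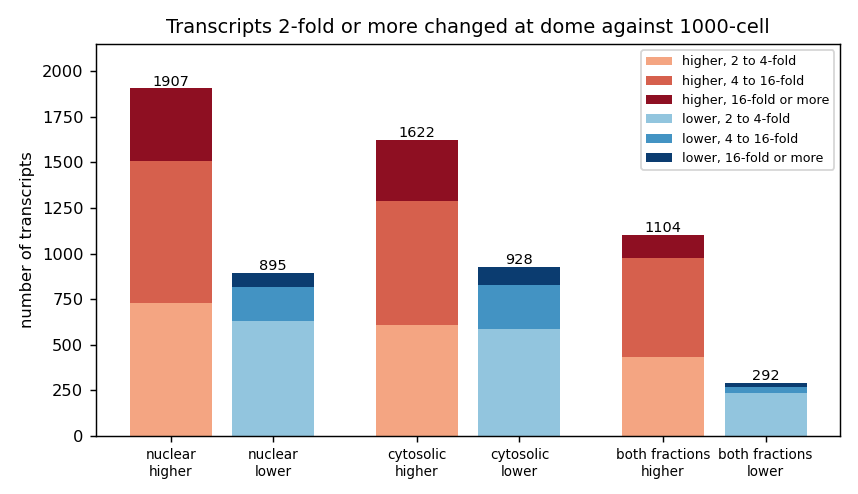
Number of transcripts 2-fold or more higher (red) or lower (blue) at dome than at 1000-cell, in the nuclear fraction, the cytosolic fraction and in both, with darker shades for larger changes and the total above each bar. Higher transcripts outnumber lower ones in each pair of bars, with the largest ratio, 3.78 to 1, for both fractions (1104 against 292).

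The increases were also larger than the decreases. Of the 1104 transcripts higher in both fractions, 431 had a smaller change of 2 to 4-fold, 543 of 4 to 16-fold and 130 of 16-fold or more. The smaller change is the lesser of the nuclear and the cytosolic one. Of the 292 lower in both, 233 were in the class of 2 to 4-fold, 37 in that of 4 to 16-fold and 22 in that of 16-fold or more. Changes of 4-fold or more therefore made up 61.0% of the higher and 20.2% of the lower set. The same held within each fraction: 61.9% of the higher transcripts passed 4-fold in the nuclear fraction and 62.5% in the cytosolic one, against 29.9% of the lower ones in the nuclear fraction and 37.1% in the cytosolic one. The median log2 change of the higher set was 2.99 in the nuclear fraction and 2.94 in the cytosolic one, and that of the lower set was -1.56 in the nuclear fraction and -1.53 in the cytosolic one. Low counts bear on these sizes. In the higher set 557 were under the filter's minimum in both 1000-cell libraries, with medians of 3.7 nuclear and 3.1 cytosolic. In the lower set 62 were under it in both dome libraries, with medians of -3.3 and -3.2. The 353 higher ones at or above it in both 1000-cell libraries had medians of 2.08 and 2.08. The 191 lower ones at or above it in both dome libraries had -1.40 and -1.38. The shares past 4-fold were not split in this way. Over all 8236 transcripts the median was 0.05 in the nuclear fraction and 0.00 in the cytosolic one.

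Most of the 8236 transcripts stayed within 2-fold. In all, 4550 transcripts (55.2%) changed by less than 2-fold in both fractions, and 2020 (24.5%) passed 2-fold in 1 fraction only. Ranked by CPM, the dome and 1000-cell libraries correlated across the 8236 transcripts at Spearman's rho 0.875 in the nuclear fraction and 0.883 in the cytosolic one. This is a description across transcripts, which are not independent replicates. Of the 100 most abundant transcripts at dome, 63 in the nuclear fraction and 71 in the cytosolic one were also among the 100 most abundant at 1000-cell. The 100 most abundant of each library held 21.7% of the nuclear and 21.2% of the cytosolic counts at dome, against 24.2% of the nuclear and 21.3% of the cytosolic counts at 1000-cell.

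The stage difference was tested with both fractions standing in for replicates, in 1 fit with the fraction as a block. No transcript passed an adjusted p-value of 0.05 in edgeR's quasi-likelihood test (0 of 8236, 0.00%), and the smallest adjusted p-value was 0.246. Unadjusted, 1407 transcripts had a p-value under 0.05, of which 888 were higher and 519 lower at dome. The fit has 1 residual degree of freedom. Per the protocol, the fractions of a stage are the pellet and the supernatant of lysed embryos. With the fraction as a block, the spread measured is therefore that of the stage change between fractions. It is not that between separate collections of embryos. DESeq2, fitted to the same 4 libraries with the same block, called 763 of 7597 transcripts (10.0%), 560 higher and 203 lower. It too had no separate collections of embryos to measure. When the spread was estimated from all 10 libraries, edgeR called 4 (0.0486%), 2 higher and 2 lower. That fit has 4 residual degrees of freedom. Its spread too is that of stage changes between fractions, since each stage has 1 library per fraction. The counts of transcripts past 2-fold given above and below are descriptions, not calls.

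Gains and losses were next counted by detection. A transcript counted as gained when it was under 10 counts in both 1000-cell libraries and at 10 or more in both dome libraries, and as lost in the reverse case. By this measure 650 transcripts were gained and 69 lost, and 6334 were present in all 4 libraries. Within the nuclear fraction 1963 transcripts were gained and 284 lost, and within the cytosolic fraction 1132 were gained and 549 lost. These per-fraction numbers are over all 16383 transcripts. The depth of the libraries moved with this result, since the nuclear library at dome was the deepest. With all 4 libraries thinned to 7662026 counts, 467 transcripts were gained in both fractions and 126 lost. Within the nuclear fraction 1426 were then gained and 483 lost, and the excess of gains was 2.95 to 1, against 6.91 to 1 as deposited. Within the cytosolic fraction 1001 were gained and 527 lost. In both fractions together the excess was 3.71 to 1 at equal depth, against 9.42 to 1 as deposited.

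Most gained transcripts were present at low levels. Their median was 50.5 nuclear and 20 cytosolic counts at dome, against 1 nuclear and 0 cytosolic counts at 1000-cell. Of the 650, 236 (36.3%) had 0 counts in both 1000-cell libraries. A smaller group of 49 reached 100 or more counts in both dome libraries, and 22 of these had 0 counts in both 1000-cell libraries. All 650 together held 0.517% of the nuclear and 0.373% of the cytosolic counts at dome (exact 95% intervals 0.514 to 0.521% and 0.370 to 0.377%). At 1000-cell they held 0.0217% of the nuclear and 0.0106% of the cytosolic counts. At dome 1 of the 650 alone held 13368 of the set's 43271 cytosolic counts. The largest nuclear count was 2733 of 68756. Of the 69 lost transcripts, 18 had 0 counts in both dome libraries, and 10 had 100 or more counts in both 1000-cell libraries.

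Not all increases were of transcripts under 10 counts at 1000-cell. Of the 1104 transcripts higher in both fractions, 557 (50.5%) were under 10 counts in both 1000-cell libraries, 194 (17.6%) reached 10 counts in 1 of them and 353 (32.0%) in both. The 353 already present had a median log2 change of 2.08 in the nuclear fraction and 2.08 in the cytosolic one. For the 557 it was 3.71 in the nuclear fraction and 3.11 in the cytosolic one, and the prior count and the low counts at 1000-cell bear on these sizes. Decreases differed in this respect: of the 292 lower in both, 191 (65.4%) were still at 10 or more counts in both dome libraries, and 62 (21.2%) were under 10 in both.

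The changed transcripts took a modest share of all counts. The 1104 higher transcripts held 9.25% of the nuclear and 5.98% of the cytosolic counts at dome, against 1.87% of the nuclear and 1.09% of the cytosolic counts at 1000-cell. The 292 lower transcripts held 1.17% of the nuclear and 1.35% of the cytosolic counts at dome, against 4.20% of the nuclear and 3.91% of the cytosolic counts at 1000-cell. Those shares at 1000-cell and dome were chosen to differ by the way the sets were formed. The libraries of the other stages did not choose the sets. There the higher set held 1.13, 1.43 and 19.98% of the nuclear counts at 64-cell, 256-cell and shield, and 1.53, 1.15 and 16.5% of the cytosolic counts. The lower set held 4.46, 3.75 and 1.43% of the nuclear counts at those stages and 3.72, 3.76 and 1.37% of the cytosolic counts. ENSDART00000016208, described further on, made up 38050 of the 84512 nuclear and 51087 of the 109162 cytosolic counts of the lower set at shield. Without the 28 transcripts among the 10 most abundant of a library, the lower set held 0.844% of the nuclear and 0.834% of the cytosolic counts at shield.

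**Figure D2:**
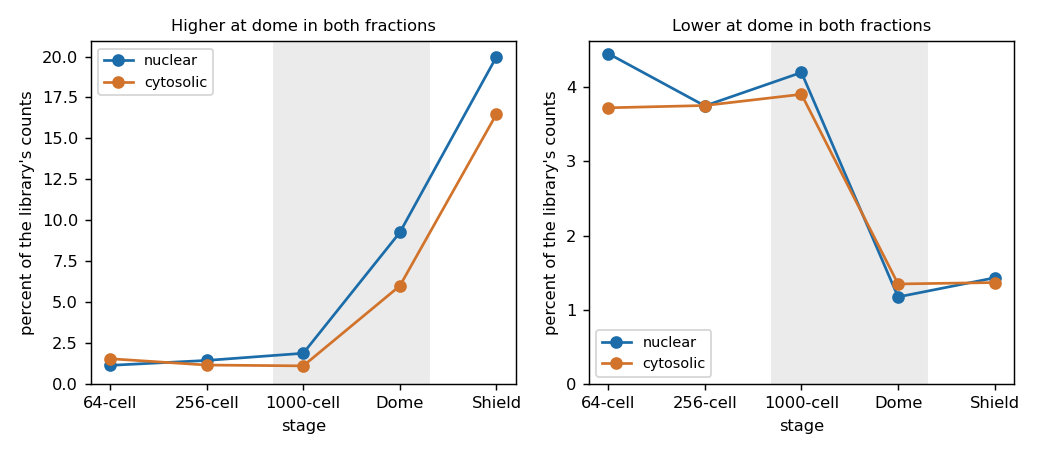
Percent of each library's counts held by the 1104 transcripts higher (left) and the 292 transcripts lower (right) at dome in both fractions, by stage, with 1 point per library and the 2 stages that chose the sets shaded. The higher set stays under 2% through 1000-cell and reaches 19.98% of the nuclear and 16.5% of the cytosolic counts at shield, while the lower set stays above 3.7% before dome and under 1.5% from dome on.

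Agreement between the fractions was first described over all transcripts. The nuclear and the cytosolic log2 change correlated across the 8236 transcripts at Pearson's r = 0.464 and Spearman's rho 0.48, and the 2 changes share no library. Per the protocol, the fractions of a stage are pellet and supernatant of lysed embryos, so a difference between collections can move both. Agreement between fractions therefore cannot tell stage and collection of embryos apart. Of 8194 transcripts with a change other than 0 in both fractions, 5610 (68.5%) had the same sign. The share with the same sign was 63.6% of transcripts with a mean under 5 CPM, 67.5% of those at 5 to 50 CPM and 73.3% of those at 50 CPM and over. Spearman's rho was 0.429, 0.504 and 0.590 in the same order. Pearson's r did not rise throughout, with 0.444, 0.513 and 0.375. By level, 28.4%, 17.2% and 7.28% of transcripts in these 3 classes passed 2-fold the same way in both fractions. Opposite changes past 2-fold were seen for 270 transcripts (3.28%) and made up 7.28%, 2.40% and 0.805% of the 3 classes.

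**Figure D3:**
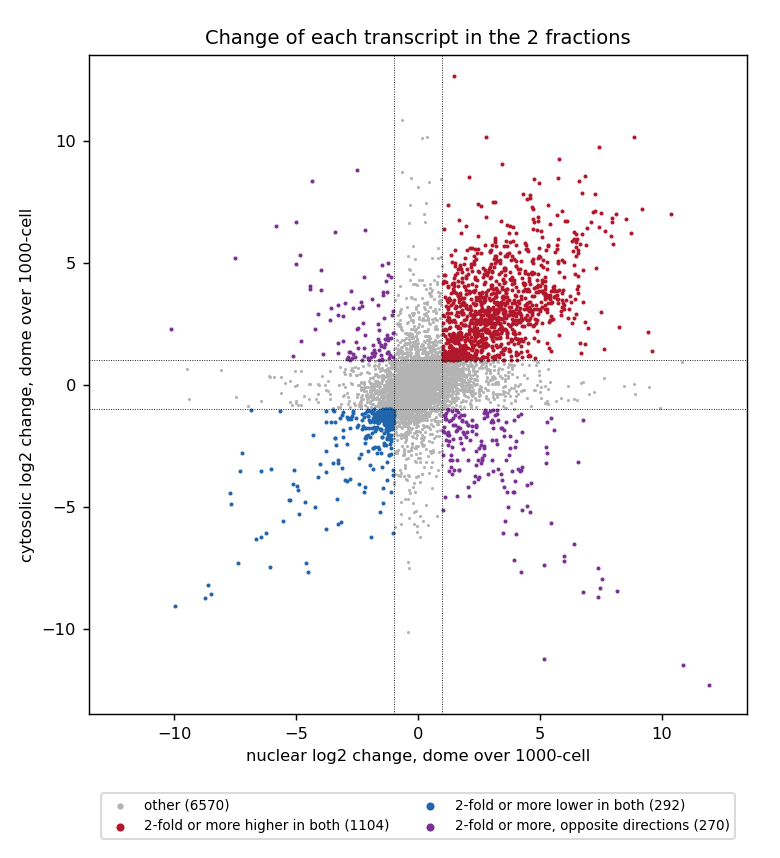
Log2 change from 1000-cell to dome of each of the 8236 transcripts in the nuclear (x axis) and the cytosolic fraction (y axis), with dotted lines at 2-fold. Of the coloured classes, transcripts higher in both fractions (red, 1104) outnumber those lower in both (blue, 292) and those of opposite changes (purple, 270).

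A larger part of the increases than of the decreases passed 2-fold in both fractions. Of the 1907 transcripts higher in the nuclear fraction, 57.9% were also 2-fold or more higher in the cytosolic fraction. Of the 1622 higher in the cytosolic fraction, 68.1% were also higher in the nuclear one. For decreases the corresponding shares were 32.6% of 895 and 31.5% of 928. Increases past 2-fold were also the more common change among all 8236: 19.7% in the cytosol and 23.2% in the nuclear fraction. Decreases past 2-fold made up 11.3% and 10.9% of all, in the same order. Each share lay above the matching share of all transcripts, for increases and decreases alike. The larger shares of increases are therefore by themselves no sign of closer agreement than among decreases. Among increases, agreement went up with size. Of transcripts 16-fold or more higher in the nuclear fraction, 77.2% of 399 were also 2-fold or more higher in the cytosolic one, against 39.1% of the 726 that were 2 to 4-fold higher. For the cytosolic fraction the shares were 83.9% of 336 and 49.3% of 609. Of transcripts lower in the nuclear fraction, 31.1% of the class of 2 to 4-fold, 34.0% of that of 4 to 16-fold and 41.6% of that of 16-fold or more (77 transcripts) were also lower in the cytosolic one. Starting from the cytosolic fraction, the shares were 33.0%, 26.1% and 35.4% (99 transcripts) in the same order. The filter bears on these shares: a transcript under 10 counts in both 1000-cell libraries was kept only if it reached 10 in both dome libraries, so a transcript that appeared in 1 fraction alone was left out. Of the sets that passed 2-fold in both fractions, 557 of 1104 higher ones were kept in this way, and 62 of 292 lower ones in the reverse way. A filter of 10 counts in 1 library or more, chosen after seeing the data, kept 9475 transcripts. With it, 50.4% of 2650 nuclear increases and 66.5% of 2009 cytosolic ones passed 2-fold in the other fraction, and for decreases 31.9% of 1076 and 30.1% of 1139. Of nuclear increases of 16-fold or more it was then 65.7% of 498, against 39.0% of the 876 of 2 to 4-fold, and of cytosolic increases 78.0% of 364, against 54.3% of 795. These shares were not tested, since each rests on 4 libraries.

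Whether the change differed between the fractions could not be tested, since a fit with that term has no residual degrees of freedom in these libraries. As a description, the gained transcripts had a median log2 change of 3.46 in the nuclear fraction and 2.94 in the cytosolic one. At dome 82.5% of them had a higher CPM in the nuclear than in the cytosolic library, against 54.5% of all 8236 transcripts. It was 86.9% of the 1104 higher in both fractions and 86.4% of the 353 of these already present at 1000-cell. The median log2 ratio of nuclear over cytosolic was 0.85 for the gained transcripts, against 0.06 over all. The comparison with all transcripts was not matched for level here either. At dome the gained ones had medians of 3.68 nuclear and 1.64 cytosolic CPM, against 19.7 and 16.3 over all. The dome libraries also took part in choosing the gained transcripts. At shield, which did not choose them, the ratio was 1.57 for the gained transcripts and 0.00 over all. With library totals in place of TMM scaling it was 1.92 and 0.31 at shield, so the excess was 1.57 on the first scale and 1.61 on the second. The gained transcripts had a median of 54.5 nuclear and 10 cytosolic counts at shield. For the 353 transcripts that were higher in both fractions and already present, the ratio was 0.70 at 1000-cell and 0.79 at dome, with a median difference between the changes of 0.02. At shield the ratio of these 353 was 0.51 with TMM and 0.97 with library totals, against 0.00 and 0.31 over all. For the 292 lower in both it was -0.07 at 1000-cell and -0.05 at dome.

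The direction of change was then read in libraries that had no part in choosing the sets, by comparing shield with 256-cell in each fraction. Of the 1104 transcripts higher at dome in both fractions, 91.6% were higher at shield than at 256-cell in nuclear libraries and 83.1% in cytosolic ones. Over all 8236 transcripts the shares were 47.9% and 47.0%. In both fractions at once 80.4% of the 1104 were higher, against 35.8% of all. This comparison with all transcripts was not matched for level. At 256-cell the 1104 had a median of 5 nuclear and 4 cytosolic counts, against 109 and 138 over all. A transcript at or near 0 at 256-cell can hardly be lower at shield. Of the 353 already present at 1000-cell, 88.7% were higher in both fractions at once. Of the 292 transcripts lower at dome, 76.0% were lower at shield than at 256-cell in nuclear libraries and 77.7% in cytosolic ones, against 50.2% and 50.2% of all. In both at once it was 67.8%, against 38.7% of all. The cytosolic shield library stood apart in its scaling, with a TMM factor of 0.698, against 0.956 to 1.11 in the others. With library totals in place of TMM the median cytosolic log2 change of all transcripts from 256-cell to shield was -0.55, against -0.01 with TMM. The shares in both fractions at once were then 77.8% of the higher set, against 31.1% of all, and 70.5% of the lower set, against 44.2% of all. With 1 library per fraction and stage these shares have no test.

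The same libraries gave these shares for transcripts that passed 2-fold in 1 fraction only, which were not tested against those that passed in both. Of the 632 higher only in the nuclear fraction, 78.5% were higher at shield than at 256-cell in nuclear libraries and 65.0% in cytosolic ones. Their median log2 change at dome in the cytosol was 0.19, and from 256-cell to shield it was 1.03 there. With library totals that median was 0.50, against -0.55 for all transcripts, and 58.1% were higher at shield in cytosolic libraries, against 37.97% of all. Of the 419 higher only in the cytosolic fraction, 65.6% were higher at shield in nuclear libraries and 58.7% in cytosolic ones, with a cytosolic median log2 change of 0.59. With library totals the cytosolic share was 50.8% and the median 0.07. Of the 504 lower only in the nuclear fraction, 74.0% were lower at shield in nuclear libraries and 69.4% in cytosolic ones. Of the 465 lower only in the cytosolic fraction it was 63.7% and 66.0%.

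**Figure D4:**
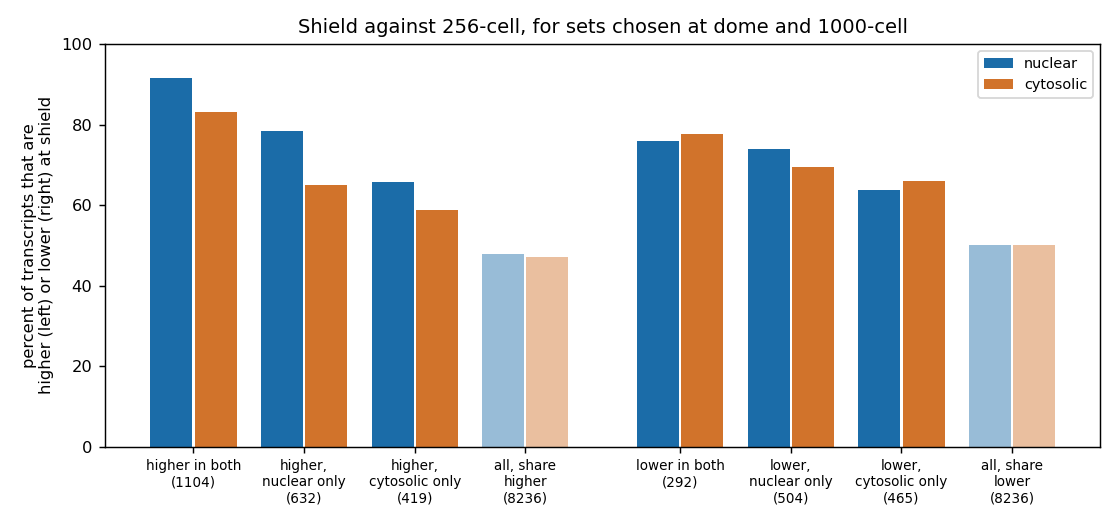
Percent of transcripts that were higher (left side) or lower (right side) at shield than at 256-cell, in the nuclear (blue) and cytosolic (orange) libraries, for sets chosen by their change from 1000-cell to dome and, in pale bars, for all 8236 transcripts, with the number in each set below it. Every set lies above the pale bars of its side, and the set higher in both fractions reaches 91.6% and 83.1%.

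The deepest decreases at dome were read in the same libraries. In all, 22 transcripts were 16-fold or more lower at dome in both fractions. Of these, 10 (45.5%) were lower at shield than at 256-cell in nuclear libraries and 12 (54.5%) in cytosolic ones. Over all 8236 transcripts it was 50.2% and 50.2%. In both fractions at once 6 of the 22 (27.3%) were lower, against 38.7% of all. With library totals it was 8 of 22 (36.4%), against 44.2% of all, and in cytosolic libraries 14 of 22 (63.6%), against 59.25%. This does not mean that the rest were higher at shield. Equal values counted as not lower, and a transcript at 0 at 256-cell cannot be lower at shield. The median log2 change of the 22 with TMM was 0.00 in nuclear libraries and -0.355 in cytosolic ones. Only 1 was 2-fold or more higher at shield in both fractions. Of the 130 transcripts 16-fold or more higher, 115 (88.5%) were higher in both. Of the 69 lost transcripts, 43 were under 10 counts in both shield libraries and 7 were at 10 or more in both. Losses were not all of transcripts present throughout cleavage: 16 of the 69 were at 10 or more counts in all 4 libraries of 64-cell and 256-cell, and 24 were under 10 in both 256-cell libraries. Of the 650 gained transcripts, 445 (68.5%) were under 10 counts in all 4 libraries of 64-cell and 256-cell. At shield 328 of them (50.5%) were at 10 or more counts in both libraries and 112 (17.2%) in neither. These numbers at other stages were not taken at equal depth. The shield libraries held 5909037 nuclear and 7990172 cytosolic counts, fewer than those of dome, so 10 counts stood for more CPM. From dome to shield the gained transcripts' median cytosolic count fell from 20 to 10, while their median CPM was 1.64 and 1.81.

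Single transcripts show these patterns, and the 2 with the largest increase by the smaller of both changes are given first. ENSDART00000132807 had 2733 nuclear and 2406 cytosolic counts at dome, against 2 nuclear and 0 cytosolic counts at 1000-cell. Both dome libraries were high and both 1000-cell libraries were at or near 0. The fitted log2 change was 10.79 (SE 1.072, worked back from the F value of the test, as are the SEs below). The nuclear ratio of dome to 1000-cell was 775 (exact 95% interval 214 to 6406), and the cytosolic level was at least 826-fold higher, against the floor of 3 counts per library, which is the one-sided 95% limit of a count of 0. The lower end of the two-sided exact 95% interval was 671-fold. It had 0 counts in all libraries of 64-cell and 256-cell, and 1253 nuclear and 298 cytosolic counts at shield. The shield libraries were shallower than the dome ones, so counts of the 2 stages do not compare directly. In CPM (TMM over 10 libraries) it had 199 nuclear and 198 cytosolic at dome, against 226 and 54.0 at shield.

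ENSDART00000007090 had 18163 nuclear and 6776 cytosolic counts at dome, against 59 nuclear and 6 cytosolic counts at 1000-cell. This was 1373 and 585 CPM at dome, against 7.86 and 0.503 CPM at 1000-cell. The ratio was 175 (135 to 230) in the nuclear fraction and 1164 (534 to 3172) in the cytosolic one. It had 0 counts in the 4 earlier libraries and 20181 nuclear and 25918 cytosolic counts at shield. The fitted log2 change was 8.58 (SE 1.00). At 1000-cell and dome its CPM was higher in the nuclear library.

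Of the 2 largest decreases, ENSDART00000008144 had 1 nuclear and 3 cytosolic counts at dome, against 1931 nuclear and 2854 cytosolic counts at 1000-cell. The ratio of 1000-cell to dome was 3403 (610 to 134487) in the nuclear fraction and 923 (316 to 4480.1) in the cytosolic one. Its other stages did not form a decline: it had 2251 nuclear and 3527 cytosolic counts at 64-cell, 2 and 4 at 256-cell, and 1 and 2 at shield. The fitted log2 change in the 4 libraries was -10.50 (SE 0.601). Both fractions of each stage were thus high or low together. Of the 10 lost transcripts with 100 or more counts in both 1000-cell libraries, 6 were also under 10 counts in both 256-cell libraries. Of the 49 gained ones with 100 or more counts in both dome libraries, 36 were under 10 in both 256-cell libraries and 4 were at 100 or more in both 64-cell libraries. These 6 losses are thus of transcripts high at 1000-cell and under 10 counts at the stages on either side. Stage and collection of embryos cannot be told apart here, and a division of reads among transcripts of a gene was not tested.

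ENSDART00000105688 had 0 counts in both dome libraries, against 579 nuclear and 922 cytosolic counts at 1000-cell, at least 340-fold lower in the nuclear and 298-fold lower in the cytosolic fraction against the floor. The lower ends of the two-sided exact 95% intervals were 276-fold and 242-fold. It had 0 nuclear and 1500 cytosolic counts at 64-cell, 876 and 1076 at 256-cell, and 0 and 1100 at shield. Its fractions agreed at 256-cell, 1000-cell and dome and not at 64-cell and shield. Each of these 4 transcripts had an adjusted p-value of 0.246 in edgeR's test of the 4 libraries, and DESeq2 gave adjusted p-values of 2.76e-16, 1.17e-32, 1.71e-29 and 0.0255. DESeq2 used the same 4 libraries, which also chose these transcripts, and measured no spread between separate collections of embryos.

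The 4 transcripts called when all 10 libraries estimated the spread are given with the log2 change, SE and adjusted p-value of that fit. Its spread is that of stage changes between fractions and not that between separate collections of embryos. They include ENSDART00000008144, with a log2 change of -10.46 (SE 0.568, edgeR adjusted p-value 0.0049). The other 3 were named because they were called. ENSDART00000016208 had 892 nuclear and 905 cytosolic counts at dome, against 23465 nuclear and 44679 cytosolic counts at 1000-cell. Its log2 change was -5.54 (SE 0.242, edgeR adjusted p-value 0.00257), and its 2 fractions gave nearly 1 value, -5.53 in the nuclear fraction and -5.58 in the cytosolic one. It had high counts at every other stage, with 26228 nuclear and 48648 cytosolic counts at 64-cell, 21457 and 33265 at 256-cell, and 38050 and 51087 at shield. Dome was therefore the 1 stage at which it was low.

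ENSDART00000150480 had 862 nuclear and 494 cytosolic counts at dome, against 4 nuclear and 6 cytosolic counts at 1000-cell (log2 change 6.70, SE 0.503, edgeR adjusted p-value 0.0232). It had 7 to 17 counts in the 64-cell and 256-cell libraries and 362 nuclear and 450 cytosolic counts at shield. In CPM (TMM over 10 libraries) this was 62.8 nuclear and 40.6 cytosolic at dome, against 65.4 and 81.5 in the shallower shield libraries. ENSDART00000059732 had 14610 nuclear and 8201 cytosolic counts at dome, against 683 nuclear and 616 cytosolic counts at 1000-cell (log2 change 3.70, SE 0.324, edgeR adjusted p-value 0.0438). It was present from the start, with 403 to 915 counts in the 64-cell and 256-cell libraries, and had 9555 nuclear and 11237 cytosolic counts at shield. On the same CPM scale it went from 1065 nuclear and 673 cytosolic at dome to 1725 and 2035 at shield. The first was thus under 20 counts in each library before dome and the second was an increase of a transcript already present.

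**Figure D5:**
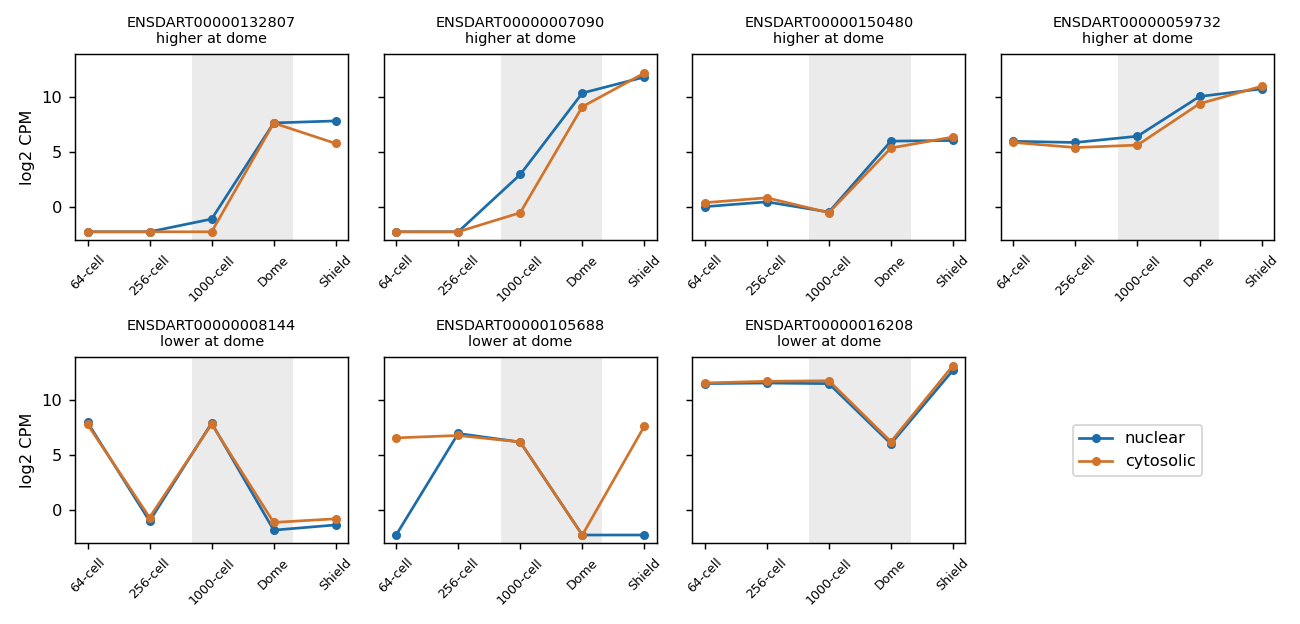
Log2 CPM (TMM over 10 libraries, prior count of 2) of the 7 named transcripts by stage in the nuclear (blue) and cytosolic (orange) libraries, 1 point per library, with 1000-cell and dome shaded. At shield the 4 transcripts in the upper row lie above their levels before dome. Of these, ENSDART00000132807 falls in the cytosolic libraries from 7.63 at dome to 5.76 at shield. ENSDART00000016208 is low at dome alone and ENSDART00000008144 is also low at 256-cell.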

How the data were processed

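RNA was sequenced as stranded total RNA from nuclear and cytosolic fractions, per the labels' protocols. The submitters' processing notes name Trimmomatic 0.27, STAR 2.6.0a, StringTie and the genome build Zv9, with no roles; how counts were made is not given in the sources used here. The authors deposited whole-number counts per transcript ID, taken here as raw counts. They may be estimates that divide reads among transcripts of a gene, whatever strand setting was used, so each value is uncertain where models overlap. All 10 columns matched a library, with 0 unmatched.

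Counts were scaled by TMM in edgeR 4.0.16 (R 4.3.3). Log2 changes within a fraction used log2 CPM with a prior count of 2. The change over both fractions was fitted with edgeR's quasi-likelihood test, with the fraction as a block and Benjamini-Hochberg adjustment over the 8236 transcripts kept. Each SE is the absolute log2 change divided by the square root of the test's F value. It is not an error that the fit itself reported. Alternatives included DESeq2 1.42.0, other scalings, filters and prior counts, thinned libraries, all 10 libraries, and each library left out (without the fraction block). Exact 95% intervals (Clopper-Pearson) and floors of 3 counts cover counting error only. Python 3.11.15 drew the figures.

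Members and sets were chosen with earlier results of these data known. Up to 2 transcripts per direction were named, by the smaller of both changes among those 2-fold or more changed the same way. The transcripts called with all libraries are named as well, chosen after their values were seen.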

Additional observations from a re-analysis of the deposited data

Results flagged for a closer look

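The change from 1000-cell to dome went in opposite directions in the 2 fractions for 270 transcripts, 3.28% of the 8236. Of these, 171 were 2-fold or more higher at dome in the nuclear fraction and 2-fold or more lower in the cytosolic one, and 99 were the reverse. The difference between the fractions was not tested, since each fraction has 1 library per stage. Their median sum of counts over the 4 libraries was 118.5, against 862.5 over all transcripts. A library with 0 counts was present for 111 of them (41.1%), against 10.9% of all transcripts. At 4-fold or more in both fractions 108 were opposite, of which 63 had a library at 0. Of the 171 higher in the nuclear fraction, 57.3% were higher at shield than at 256-cell in nuclear libraries and 44.4% in cytosolic ones, against 47.9% and 47.0% of all. Of the 99 lower in the nuclear fraction, 47.5% were lower at shield in nuclear libraries and 50.5% in cytosolic ones, against 50.2% and 50.2% of all. The part of low counts in these differences was not tested.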

How the results depend on the processing

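The number of transcripts called over both fractions was 0 with the fraction as a replicate block and also 0 without the block (1670 unadjusted). It was 0 as well with library totals, DESeq2 size factors, no filter or a minimum of 50 counts. It was 763 with DESeq2 and 4 with all 10 libraries. The fits without each library in turn had no fraction block and left 1 library in a stage, so their numbers are not given. A minimum of 50 counts gave 981 higher and 537 lower in the nuclear fraction, 868 and 504 in the cytosolic fraction, 570 and 170 in both, and 104 in opposite directions; fewer transcripts enter it. At 4-fold the numbers were 673, 59 and 108. Thinning the libraries to 1 depth gave 126 lost transcripts in both fractions and 483 in the nuclear one. Of nuclear increases, 50.4% passed 2-fold in the cytosol with a filter of 10 counts in 1 library and 55.5% with a mean of 10 counts, both chosen after seeing the data. The share with the same sign was 69.6% at 50 counts. Of the higher set, 77.8% kept its direction at shield with library totals. Leaving out the 28 transcripts among the 10 most abundant of a library, the lower set held 2.96% of the nuclear and 3.21% of the cytosolic counts at 1000-cell, and 0.844% and 0.834% at shield. Of the 92 alternatives for values across many transcripts, 74 were counted as the same, within 1.5 times or within the counting interval. Both numbers include the fits without each library in turn, which carry no weight for the reason given above. A share outside its counting interval was not counted as the same even when within 1.5 times. The same-sign share of 69.6%, against 68.5% (interval 67.45 to 69.47%), was such a case. The 27 alternatives for shares of a library's counts and for single transcripts were not counted as the same. Without the 28 transcripts, for example, the higher set held 18.2% of the nuclear counts at shield, against 19.98% with them. Depth limits what is known of transcripts gained or lost, most of which had few counts.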
